A study of Mus musculus with 15 samples.

Results

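The 36 genes described here mark blood vessels. They are expressed by endothelial cells, which line vessels, and by mural cells (pericytes and smooth muscle), which wrap them, or they encode the transporters and tight junctions of the blood-retina barrier. Of the 36, 22 had at least 1 transcript in the 3 deposited tables, out of 16099 gene symbols in all, and 14 reached a summed level of 0.5 FPKM in either group of every table (fragment counts corrected for how long a transcript is and how deep the library is, summed over a gene's listed transcripts). Just inside that limit were Esam, at 0.561 FPKM in WT and 0.588 in MUT, and Vwf, at 0.558 and 0.701; just outside it were Cdh5, at 0.417 and 0.437, and Emcn, at 0.389 and 0.373.

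The RNA came from whole CD-1 mouse retinas taken at postnatal day 2, in 15 samples by the labels. WT retinas (Neurog2CKO/CKO, 5 samples) carried 2 floxed Neurog2 alleles and no Cre. HET retinas (Chx10Cre;Neurog2CKO/+, 5 samples) carried Chx10Cre, so named in the labels, with 1 floxed allele, and MUT retinas (Chx10Cre;Neurog2CKO/CKO, 5 samples) the same Cre with both alleles floxed. Each group was deposited as 1 pooled value per transcript, so no spread between samples and no depth per sample can be given, and the labels do not say whether samples came from separate animals. HET and MUT therefore differ from WT in Cre as well as in Neurog2. Cre of this line acts in retinal progenitors, whereas endothelial cells are of mesodermal origin and reach the retina from outside.

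In mice the superficial vessel plexus grows out from the optic nerve head during the first days after birth. Tip cells at its front sense VEGF through Kdr and follow a network of retinal astrocytes. The endothelium of the sprout recruits pericytes with Pdgfb, which pericytes detect through Pdgfrb. Tight junction proteins such as Cldn5 and transporters such as Mfsd2a then seal the vessel wall. Hyaloid vessels, which lie in the vitreous of the newborn eye, carry the same genes.

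Relative to WT, MUT retinas had more Cldn5 RNA, and this was the 1 vessel gene called. Rgs5, a pericyte gene, had the next smallest p-value. Cdh5, Flt1 and Pdgfrb had values close to those of WT with wide errors. Pecam1 and Tie1, both under 0.5 FPKM, were 1.34-fold and 1.20-fold higher in MUT than in WT, also with wide errors. The promoter windows of Cldn5 and Rgs5, shown because theirs were the smallest p-values from WT to MUT, run from 250 bases before to 50 after the RefSeq start (GRCm38.p6, 5′ to 3′). Capitals mark matches on either strand to an ETS motif (CAGGAAG or, in its other form, CCGGAAG), a SOX motif (AACAAT), the motif of GATA factors (AGATAA) or a CCAAT box (those letters), with the ETS letters and the CCAAT box chosen after the windows were seen; no 2 of these matches overlap. Cldn5 lies at chr16:18776597-18776896 on the plus strand, and Rgs5 at chr1:169655251-169655550 on the plus strand.
Cldn5: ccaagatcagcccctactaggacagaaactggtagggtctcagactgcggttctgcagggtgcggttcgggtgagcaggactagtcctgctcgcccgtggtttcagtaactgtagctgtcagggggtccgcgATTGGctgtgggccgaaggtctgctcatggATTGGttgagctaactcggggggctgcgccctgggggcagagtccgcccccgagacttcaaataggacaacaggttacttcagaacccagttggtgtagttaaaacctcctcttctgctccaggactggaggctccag
Rgs5: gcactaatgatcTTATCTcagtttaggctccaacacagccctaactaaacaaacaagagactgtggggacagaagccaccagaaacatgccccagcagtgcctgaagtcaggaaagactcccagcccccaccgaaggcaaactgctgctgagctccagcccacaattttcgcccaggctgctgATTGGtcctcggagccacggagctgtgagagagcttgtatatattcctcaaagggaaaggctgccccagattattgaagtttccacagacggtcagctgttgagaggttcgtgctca
The Cldn5 window held CCAAT boxes at -118 to -114 and -88 to -84, counted in bases from the start site, both on the opposite strand (ATTGG as written). The Rgs5 window held 1 at -67 to -63 and a GATA match at -238 to -233, also on the opposite strand. Of 23 members with a window (the first listed for each), 4 held the ETS motif (17.4%), against 20.9% of all 32851 windows supplied. The SOX motif was in 3 (13.0%, against 10.7%), the GATA motif in 2 (8.70%, against 11.2%) and the CCAAT box in 6 (26.1%, against 37.4%). These shares lay near those of all windows counted, and a match is a description of letters only.

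The check of the labels came first: Neurog2, a proneural transcription factor of retinal progenitors, was at 59.5 FPKM in WT against 10.6 in MUT in the authors' deposited table (log2 fold change -2.49 ± 0.32, q = 0.0388), and at 59.2 FPKM in WT against 42.4 in HET (-0.48 ± 0.28, p = 5e-05, q = 0.0769). Here and throughout, ± after a log2 fold change is the standard error implied by the deposited fold change and test statistic. Calls are transcripts with a Cuffdiff q-value, corrected by the authors over their table, of under 0.05. In HET against WT and in MUT against HET the smallest q-values were 0.0769 and 0.0762, so no transcript of any gene was called there. A lack of calls in those comparisons is therefore no measure of a lack of change.

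The levels of the 22 listed genes spanned from 0.255 FPKM for Tie1 to 105 FPKM for Kdr in WT. Kdr, the main VEGF receptor of endothelium, was 252-fold above Cdh5, 411-fold above Tie1 and 341-fold above Flt1 in WT, and ranked 862 of 15948 genes. Egfl7 was 40.5-fold and Cldn5 28.3-fold above Cdh5 in WT. Developing retinal neurons and progenitors are known to express Kdr in mice, neuroepithelial cells Tjp1, and oligodendrocyte precursors Cspg4, so the levels of such genes in whole retina are not those of vessels alone. The defining pan-endothelial genes were low (Cdh5 at 0.417 FPKM, Pecam1 at 0.272, Tie1 at 0.255 in WT), and the label of the list rests on genes of under 2 FPKM for 8 of the 14 members past the limit. In bulk RNA, fewer cells of a type and less RNA per cell cannot be told apart.

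**Figure D1:**
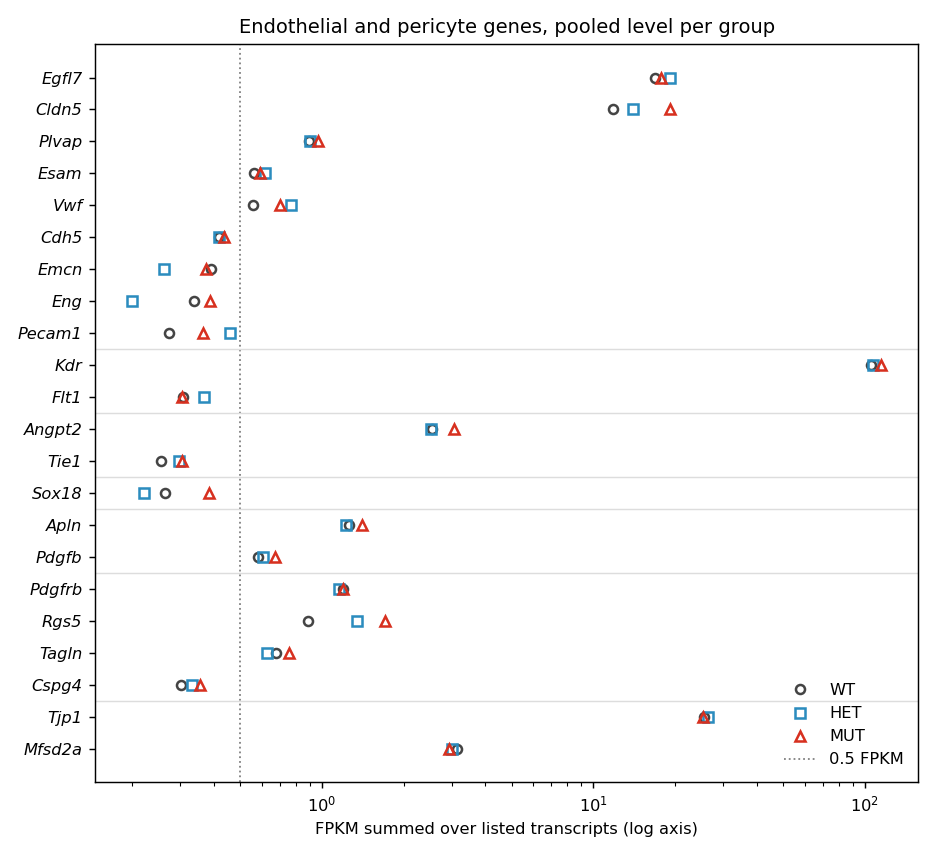
Level of each of the 22 listed endothelial and pericyte genes (rows, separated by role) in FPKM summed over listed transcripts, on a log axis, with 1 pooled value per group and no error. WT and MUT come from the table of MUT against WT and HET from that of HET against WT (for Sox18 from MUT against HET); the number of transcripts listed for Egfl7, Angpt2, Mfsd2a and Eng differs between these tables. Kdr stands at 105 to 115 FPKM in all groups, Cldn5 rises from 11.8 to 19.2 FPKM, and the 8 genes left of the dotted line did not reach 0.5 FPKM.

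Among endothelial surface and junction genes, Cldn5, the claudin that closes endothelial tight junctions, was at 11.8 FPKM in WT against 19.2 in MUT. This was a 1.63-fold difference in the authors' deposited table, or 0.70 ± 0.38 on the log2 scale (Cuffdiff p = 5e-05, q = 0.0388). Cldn5 (ENSMUST00000043577.1, chromosome 16, 18776847 to 18778260, mm10) has 1 annotated transcript, so its value does not depend on how reads were split between transcripts. The call had the smallest p that the table holds although the test statistic was under 2, and it was lost under a normal approximation to that statistic and at a q-value under 0.01. HET lay between the other groups: the authors' deposited table gave 11.7 FPKM in WT against 13.9 in HET (0.25 ± 0.41, p = 0.16, q = 1.0), and 14.0 FPKM in HET against 19.1 in MUT (0.45 ± 0.29, p = 0.00055, q = 0.442). The order WT, HET, MUT is that of pooled values with no spread between samples.

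Cldn5 was not accompanied at this size by the other junction genes. The adhesion molecule Cdh5, VE-cadherin, was at 0.415 FPKM in WT against 0.417 in HET, and at 0.417 FPKM in WT against 0.437 in MUT. The ratio of Cldn5 to Cdh5 was thus 28.3 in WT, 33.4 in HET and 43.8 in MUT, without a test of the difference. Esam, an endothelial adhesion molecule, was at 0.561 FPKM in WT and 0.588 in MUT (0.07 ± 0.84, p = 0.86), and Plvap, which forms the diaphragms of fenestrated endothelium, at 0.893 and 0.969 (0.12 ± 1.48, p = 0.859), each in the authors' deposited table. Their errors are wide enough to hold a change like that of Cldn5.

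Pecam1, the platelet endothelial adhesion molecule CD31, was at 0.271 FPKM in WT, 0.457 in HET and 0.365 in MUT, under the limit in every group. In the authors' deposited table it differed by 0.42 ± 1.51 (log2) from WT to MUT (Cuffdiff p = 0.582) and by 0.75 ± 1.42 from WT to HET (p = 0.237). Emcn, an endothelial sialomucin, was lowest in HET, at 0.261 FPKM against 0.387 in WT and 0.373 in MUT. Eng, a co-receptor for TGF-beta family ligands, had 2 listed transcripts in MUT against WT that moved in opposite directions, at 3.28 ± 4.23 and -1.75 ± 3.41 in the authors' deposited table, while their sum was 0.339 FPKM in WT and 0.388 in MUT. The tables with HET each listed a different one of these transcripts, so no HET level of Eng can be set beside the others. Vwf, a clotting factor stored by endothelium, was represented only by a transcript annotated as a retained intron, at 0.558 FPKM in WT and 0.701 in MUT, and gives no level for its mRNA. Robo4 had no row and was not analysed here.

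Egfl7, a secreted endothelial factor whose gene also hosts a vascular microRNA, summed to 16.9 FPKM in WT and 17.7 in MUT over 9 listed transcripts of 19 annotated ones. Its highest transcript (ENSMUST00000174211.6) was at 10.1 FPKM in WT and 9.29 in MUT (-0.12 ± 0.67, p = 0.679), and at 10.1 in WT and 10.0 in HET (-0.00 ± 0.72, p = 0.992), in the authors' deposited table. Egfl7 was thus the most abundant member of this role group in WT and showed no difference that the test could detect. Its locus in the files also spans Agpat2 and Fam69b, so reads of overlapping transcripts could be split between genes. The listed loci of Eng, Plvap, Angpt2 and Tagln likewise ran past the bounds of those genes.

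The VEGF receptor Kdr (chromosome 5, 75932827 to 75978458, mm10) had 104 FPKM in WT against 107 in HET, differing by 0.04 ± 0.32 (log2) in the authors' deposited table (p = 0.797). From WT to MUT the authors listed it at 105 and 115 FPKM (0.13 ± 0.31, p = 0.356), and from HET to MUT at 107 and 114 FPKM (0.09 ± 0.23, p = 0.367). Flt1, which binds VEGF with high affinity and limits signalling through Kdr, was at 0.308 FPKM in WT and 0.306 in MUT (-0.01 ± 0.80, p = 0.979), and at 0.306 in WT and 0.367 in HET (0.26 ± 0.80, p = 0.462), in the authors' deposited table. Neither receptor differed beyond its error, with Kdr measured far more closely than Flt1. Flt4, the receptor for VEGF-C, had no row.

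Of the angiopoietin and Tie genes, Angpt2, the ligand that destabilises vessels during sprouting, summed to 2.55 FPKM in WT and 3.06 in MUT. Part of that difference lay in a short non-coding transcript. Its mRNA transcript was at 2.35 FPKM in WT and 2.58 in MUT (0.13 ± 0.60, p = 0.616) and, against HET, at 2.34 in WT and 2.52 in HET (0.11 ± 0.62, p = 0.691), in the authors' deposited table. The orphan receptor Tie1 was at 0.255 FPKM in WT and 0.306 in MUT (0.26 ± 0.83, p = 0.487), and from HET to MUT at 0.298 and 0.306 (0.04 ± 0.65, p = 0.899), in the authors' deposited table. Tek, the angiopoietin receptor Tie2, had no row.

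Among the transcription factors of endothelium, only Sox18, which acts in arterial and lymphatic specification, had a row, and it stayed under 0.5 FPKM. It was at 0.220 FPKM in HET and 0.382 in MUT, differing by 0.80 ± 0.84 (log2) in the authors' deposited table (p = 0.0361, q = 1.0). From WT to MUT it went from 0.265 to 0.383 FPKM in the authors' deposited table (0.53 ± 0.97, p = 0.23), and it had no row in HET against WT. Neither value was called. Sox17, Erg and Fli1 had no row.

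Sprout-derived ligands lay slightly above WT in MUT without a call. Apln, the apelin peptide gene that tip cells express, was at 1.26 FPKM in WT and 1.41 in MUT (0.16 ± 0.60, p = 0.55), and at 1.25 in WT and 1.22 in HET (-0.03 ± 0.65, p = 0.9), in the authors' deposited table. Apln is X-linked, and X- and Y-linked RNA also differed between the groups, as given below. Pdgfb, the endothelial ligand that recruits pericytes, was at 0.581 FPKM in WT and 0.672 in MUT (0.21 ± 0.72, p = 0.498), and at 0.578 in WT and 0.607 in HET (0.07 ± 0.76, p = 0.836), in the authors' deposited table. Esm1, a proteoglycan of tip cells, had no row.

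Of the mural cell genes, Rgs5 had the smallest p-value and none was called. Rgs5, a regulator of G protein signalling and a marker of pericytes (ENSMUST00000027997.7, chromosome 1, 169655501 to 169695813, mm10), had 0.890 FPKM in WT against 1.71 in MUT. In the authors' deposited table this was a log2 fold change of 0.94 ± 0.58 (Cuffdiff p = 0.00045, q = 0.266), which was not called. It was at 0.885 FPKM in WT and 1.35 in HET (0.60 ± 0.63, p = 0.0334, q = 1.0), and at 1.35 in HET and 1.71 in MUT (0.34 ± 0.43, p = 0.0747, q = 1.0), in the authors' deposited table. As for Cldn5, the pooled HET value lay between those of WT and MUT.

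Pdgfrb, the receptor through which pericytes sense Pdgfb, had almost equal values in all groups, at 1.20 FPKM in WT and 1.20 in MUT (-0.00 ± 0.54, p = 0.99), and at 1.19 in WT and 1.16 in HET (-0.04 ± 0.56, p = 0.865), in the authors' deposited table. The ratio of Rgs5 to Pdgfrb was 0.743 in WT, 1.16 in HET and 1.43 in MUT, without a test of the difference. Cspg4, the NG2 proteoglycan, was at 0.303 FPKM in WT and 0.356 in MUT (0.23 ± 0.66, p = 0.426), in the authors' deposited table. Tagln, a smooth muscle actin-binding protein, was at 0.677 and 0.757 FPKM, with an implied error of 3.82 that leaves its direction unknown. Acta2, smooth muscle actin, and Kcnj8 and Abcc9, the subunits of the pericyte potassium channel that closes on binding ATP, had no row.

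Of the 6 barrier transporter and tight junction genes grouped apart from Cldn5, only 2, Tjp1 and Mfsd2a, had a row. Their summed log2 ratios ran from -0.09 to -0.01 in MUT against WT and from -0.14 to 0.05 in HET against WT. Tjp1, the scaffold protein ZO-1, summed to 25.6 FPKM in WT and 25.4 in MUT over 3 transcripts, and to 25.5 in WT and 26.5 in HET. Its highest transcript differed by 0.01 ± 0.30 from WT to MUT in the authors' deposited table (p = 0.945). Mfsd2a, the lipid transporter that limits transcytosis across barrier endothelium, had its main transcript at 3.14 FPKM in WT and 2.94 in MUT (-0.09 ± 0.54, p = 0.692), and at 3.12 in WT and 2.66 in HET (-0.23 ± 0.57, p = 0.364), in the authors' deposited table. Ocln, the tight junction protein occludin, and the transporter genes Slco1a4, Slc7a5 and Abcb1a had no row.

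**Figure D2:**
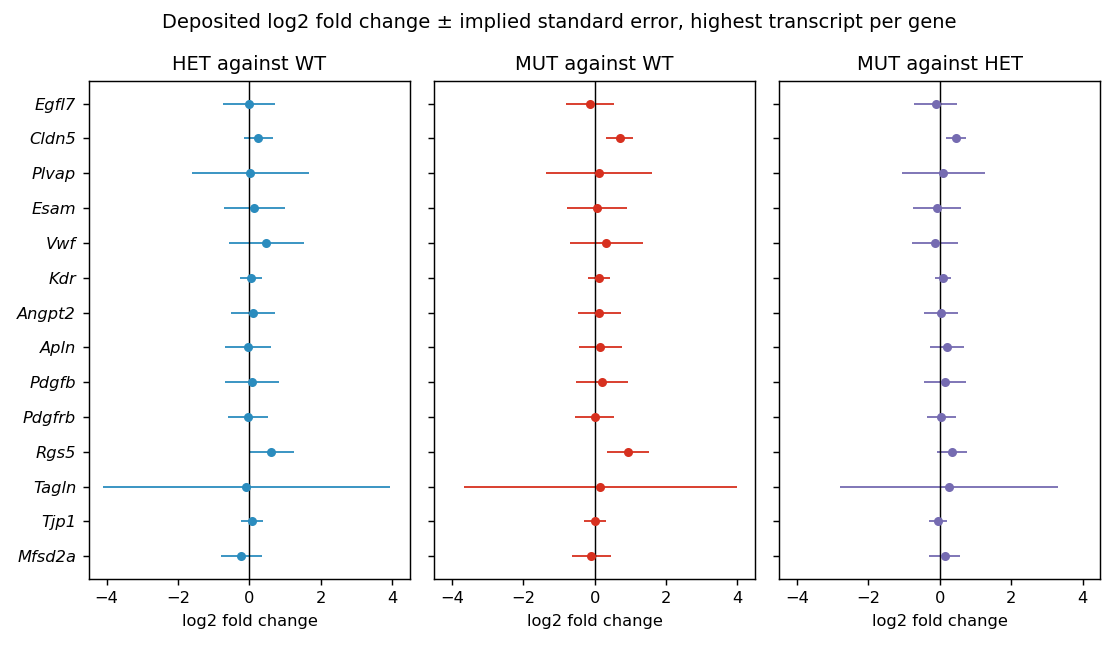
Deposited log2 fold change (x axis) of the highest transcript of each of the 14 genes of 0.5 FPKM or more, in the 3 comparisons, with bars of 1 implied standard error. Cldn5 at 0.70 ± 0.38 and Rgs5 at 0.94 ± 0.58 in MUT against WT have bars that do not reach 0. Their test statistics were 1.86 and 1.61, and of these only Cldn5 was called. Kdr and Tjp1 have short bars over 0 and Tagln has an error of 3.82.

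Across the list, 1 of 34 member transcripts was called in MUT against WT, while 0.027% of all transcripts were called higher and 0.115% in either direction. An unadjusted p under 0.05 was reached by 2 of the 34, Cldn5 and Rgs5, both higher, against 0.368% of all transcripts higher and 0.483% lower. In HET against WT no member transcript was called by Cuffdiff, which called 0% of all transcripts. None was called by the normal approximation either, whose share over all transcripts was not counted. Of the 34, 1 (Rgs5) had a p under 0.05 (0.227% of all were higher and 0.288% lower). In MUT against HET none of 37 was called by either, again with 0% of all called by Cuffdiff. Cldn5 and Sox18 had a p under 0.05 (0.344% higher, 0.471% lower). No member transcript had a p under 0.05 with a lower value in any comparison.

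By level, 11 of the 14 genes had a log2 ratio of (FPKM + 0.1) above 0 in MUT against WT, where 53.8% of all genes of 0.5 FPKM or more did. The median ratio was 0.13, against 0.01 over all such genes. A ratio of 0.25 or more was reached by 4 of the 14 (Rgs5, Cldn5, Vwf and Angpt2), against 8.51% of all genes and 23.1% of genes of 0.5 to 2 FPKM; of the 8 members in that lower band 2 did. None of the 14 was at -0.25 or less, against 5.87% of all genes. With protein-coding transcripts only, or with a pseudocount of 1, 2 genes reached 0.25 in place of 4. In HET against WT, 10 of 14 were above 0 (53.2% of all genes), the median was 0.06 against 0.01, and 2 (Rgs5 and Vwf) reached 0.25 (7.97% of all genes, 21.9% of those of 0.5 to 2 FPKM) while none was at -0.25 or less (5.15%). In MUT against HET, 10 of 14 were above 0 (52.1%), with a median of 0.09 against 0.00, and 2 (Cldn5 and Rgs5) reached 0.25 (4.59%, and 15.3% of genes of 0.5 to 2 FPKM) while none was at -0.25 or less (4.57%). These comparisons share their groups and are not independent of each other.

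Genes of vessels outside the 36 gave the following values. Of 25 signalling ligands and receptors, 23 reached 0.5 FPKM; none had a transcript with p under 0.05 in any comparison, and 12 of 23 lay above 0 in MUT against WT, with a median of 0.02. Vegfa, the ligand of Kdr, summed to 87.0 FPKM in WT and 85.5 in MUT, and Ndp, the Norrin ligand needed for retinal vessels, to 3.98 and 4.30. Of 24 further endothelial genes, 9 had a row, 8 reached 0.5 FPKM in MUT against WT and all 8 lay above 0, with a median of 0.26. Of these 8, Slc38a5, at 0.483 FPKM in WT and 0.588 in MUT, passed the limit only through MUT. Its direction was thus fixed by the limit. Among these 8, Itm2a, a membrane protein of endothelial and other cells, had a p under 0.05 in the authors' deposited table, at 46.5 FPKM in WT and 56.2 in MUT (0.27 ± 0.28, p = 0.0286, q = 0.999). Itm2a, like Apln, is X-linked, and X- and Y-linked RNA also differed between the groups, as given below. In HET against WT, 5 of 7 further endothelial genes lay above 0, with a median of 0.06 and no p under 0.05. Slc38a5, at 0.480 FPKM in WT and 0.130 in HET, was not among these 7. Of 14 further mural cell genes, 6 reached 0.5 FPKM, 3 lay above 0 in MUT against WT, and the median was -0.03. Their ratios ran from -0.43 (Vtn) to 0.39 (Myl9), beside 0.87 for Rgs5, and none had a transcript with p under 0.05. The genes below 0 included Ndufa4l2 and Mcam, at 230 and 40.7 FPKM in WT, beside 1.20 for the pericyte receptor Pdgfrb. Among the further endothelial genes, Slc2a1 was at 198 FPKM in WT, beside 0.417 for Cdh5. Which cells these high levels came from was not tested, so they may not be those of vessels.

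Lists of other cell types moved beside the vessel genes, and their part in the values above was not tested. All 13 measured microglia and macrophage genes lay above 0 in MUT against WT, with a median of 0.54 and a summed level of 82.0 FPKM in WT and 119 in MUT; 7 had a p under 0.05 and none was called. In HET against WT the 13 had a median of 0.32 and sums of 81.0 and 104 FPKM. Of 16 genes on that list, Ptprc, Itgam and Mrc1 had no row. Astrocyte genes, which mark the template that vessels follow, had 5 of 6 above 0 in MUT against WT with a median of 0.31, and 3 of 6 in HET against WT with a median of -0.00. The astrocyte gene Gfap was at 7.24 FPKM in WT and 9.33 in MUT, and Pax2 at 1.79 and 2.61.

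Red blood cell genes, which follow the blood held in vessels, summed to 24.0 FPKM in WT and 27.9 in MUT, and to 23.7 in WT and 19.6 in HET. Of such genes, 3 reached 0.5 FPKM, with medians of 0.28 and -0.18, so that they lay above 0 in MUT and below 0 in HET. The erythroid genes Alas2, Slc4a1 and Ahsp had no row. Fibroblast and stroma genes (2 measured) had a median of -0.01 in MUT against WT, and lens and pigment epithelium genes (3 and 4 measured) of -0.16 and -0.12. In HET against WT the medians were 0.53 for stroma (3 measured), 0.52 for lens (4 measured) and 0.05 for pigment epithelium (4 measured). The stroma gene Col1a1 (0.455 FPKM in WT, 0.774 in HET) and the lens gene Cryaa (0.470 and 1.11) passed the limit only through HET. Both were under it in MUT against WT, so the stroma and lens medians of these comparisons cover different genes.

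Summed Kdm5d, a Y-linked gene expressed in males, came to 3.73 FPKM in WT and 0.00117 in MUT, and Xist, expressed from the inactive X of females, to 98.8 and 135.0 FPKM. From WT to HET, Kdm5d summed to 4.95 and 7.10 FPKM over 4 listed transcripts, in place of 2 from WT to MUT, and Xist to 98.3 and 63.2. Sex-linked RNA thus differed between the groups beside every comparison of vessel genes, and sex and genotype cannot be told apart in these pooled values.

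**Figure D3:**
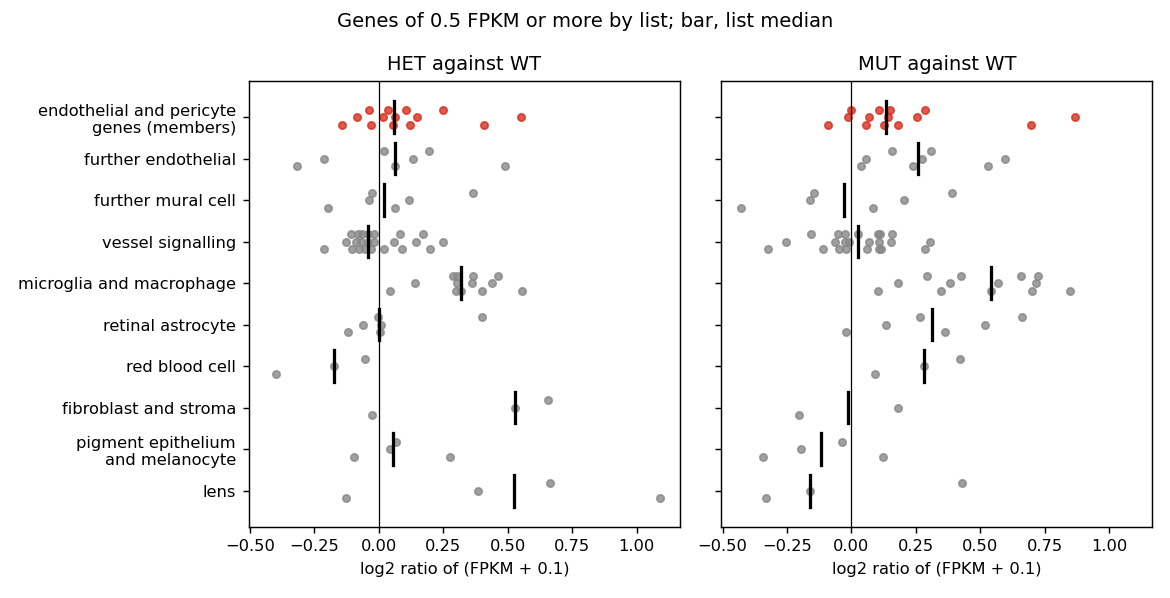
Log2 ratio of (FPKM + 0.1) of each gene of 0.5 FPKM or more (points, x axis) by gene list (rows), for HET against WT and MUT against WT, with a bar at the list median. The 14 endothelial and pericyte genes have medians of 0.06 and 0.13, the further endothelial genes 0.06 and 0.26, and the microglia and macrophage genes 0.32 and 0.54. Some lists hold different genes in the panels, as Slc38a5 is among the further endothelial genes only in MUT against WT.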

How the data were processed

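RNA of 15 retina samples was sequenced in bulk. Per the submitters' processing notes, Bowtie2, Cufflinks and Cuffdiff were used with the build mm10; no versions are given. The authors deposited 3 pairwise Cuffdiff tables with FPKM per transcript pooled over each group's samples, per the file headers. The same tables give, as deposited by the authors, a log2 fold change, a test statistic (a score), a p-value and a q-value. Recomputed log2 ratios of the FPKM values matched the deposited ones to within 5.12e-05. Tables held 44119, 44526 and 43959 rows; a group's values differed between tables by a median of 0.533% or less. For 98, 99 and 93 rows a date stood in place of the symbol, which was looked up by gene identifier.

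From these values, FPKM was summed per gene (pandas 2.3.3) and log2 ratios taken with a pseudocount of 0.1, which understates changes of low genes. Transcript types came from GENCODE M21 (98.8% of rows matched), promoter windows from RefSeq tables (GRCm38.p6). The depth of each sample is unknown. Gene sums and the Benjamini-Hochberg step were tested on simulated data. Full values are given for members with p under 0.05 in any table and for the 2 members of each role group with the highest level in WT. The members, lists and thresholds were chosen with earlier results of these data known; the window of 0.5 to 2 FPKM was added after seeing the values. Members without a row were not analysed here. P-values are those of Cuffdiff as deposited, and how far they reflect spread between samples cannot be seen in pooled values. Any such spread may be technical.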

Additional observations from a re-analysis of the deposited data

How the results depend on the processing

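In MUT against WT, the 1 call (Cldn5) was 0 at a q-value under 0.01 and 0 under a normal approximation to the test statistic; it was 1 at a q-value under 0.10, with the correction recomputed and with rows of 1 FPKM or more. The counts in HET against WT and MUT against HET were 0 under all 5 alternatives of each. The median log2 ratio of the members stayed above 0 under all 10 alternatives in each comparison, at 0.07 to 0.15 in MUT against WT, 0.04 to 0.10 in HET against WT and 0.05 to 0.10 in MUT against HET. It moved by more than 1.5 times in MUT against WT with a pseudocount of 1 (0.074). In MUT against HET it did so with a pseudocount of 1 (0.052) and over genes of 2 FPKM or more (0.059). In HET against WT it did so, to 0.10, when 8 listed genes that other cells also express were dropped. That step left 11 of the 14 measured genes, because some of the 8 were not among the 14. Kdr, which retinal neurons and progenitors also express, was kept, so the step did not remove all RNA from outside vessels. Leaving out Cldn5 and Rgs5, decided on once the values were known, gave medians of 0.12, 0.04 and 0.06. Their order is MUT against WT, HET against WT and MUT against HET. With a pseudocount of 1, the Rgs5 ratio was 0.52, 0.32 and 0.20 in that order. The ratio of Cldn5 lay between 0.66 and 0.70 in MUT against WT. No paired analysis was possible because the tables hold 1 pooled value per group, which also prevents leaving out a sample.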
